A study of Mus musculus with 4 samples.

Results

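The Lhx6 GABAergic neurons of the lateral septum (LS) samples were 222 nuclei out of 48940 nuclei past the quality limits, or 0.454%. Each of them held at least 2 unique molecular identifiers (UMIs, counted RNA molecules) of Lhx6 and at least 2 of Gad1 and Gad2 together, no UMI of the choline transporter gene Slc5a7, fewer than 2 of Slc17a6 and of Slc17a7, the vesicular glutamate transporter genes, and fewer than 3 of St18, a gene of the oligodendrocyte lineage. Nuclei past the quality limits had 200 to 6000 genes, less than 2% mitochondrial UMIs and at least 2000 UMIs. The levels of these 7 genes in the chosen nuclei are therefore descriptions of the choice and carry no test.

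Lhx6 encodes a LIM homeodomain transcription factor that acts below Nkx2-1 in neurons born in the medial ganglionic eminence and neighbouring ventral progenitor zones. In the cortex, hippocampus and striatum it is known from interneurons that make somatostatin or parvalbumin, and in the septum from GABAergic projection neurons of the medial septum. Most GABAergic neurons of the LS lack it, and the septal cholinergic neurons switch from Lhx6 to Lhx8 and Isl1 as they mature.

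Single nuclei were sequenced from microdissected LS of male mice aged 6 to 8 weeks, with 3 mice pooled in each of 4 libraries. Libraries C57J 1 and C57J 2 were from C57BL/6JNifdc mice, the nude library from BALB/c nude mice, which lack T cells, and the BALB/c library from BALB/c mice, so that 2 libraries have the BALB/c background. C57J 1 was labelled batch 1 and the other 3 libraries batch 2. No label or file splits a pool into its mice, so every spread given here is between pools.

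In the order C57J 1, C57J 2, nude, BALB/c, the libraries summed to 102939576, 72912922, 82169638 and 125998527 UMIs, and their nuclei past the limits had median depths of 6362, 5462, 5676 and 9005 UMIs. C57J 1 gave 39 Lhx6 nuclei, C57J 2 gave 25, nude gave 57 and BALB/c gave 101. Their median depths were 10851, 9998, 8192 and 14843 UMIs, each above the median of its library. Summed over its Lhx6 nuclei, a library held from 260147 (C57J 2) to 1609116 UMIs (BALB/c), so the BALB/c values have the smallest counting error and C57J 2 the largest. Pairs of libraries shared from 29 to 63 barcodes, and no barcode was shared between the Lhx6 nuclei of 2 libraries. Of the 222 nuclei 23 were predicted doublets, that is 2 nuclei under 1 barcode, and they were kept.

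The nuclei carried the RNA of GABAergic neurons. Gad2 was found in 216 and Gad1 in 193 of the 222, both through the choice. Outside the choice, Slc32a1, which encodes the vesicular GABA transporter, was found in 118. In CPM, which scale the summed UMIs of every class and library to one total, Slc32a1 was at 59.7 (C57J 1), 38.4 (C57J 2), 36.3 (nude) and 88.9 (BALB/c), against 66.9, 52.0, 56.8 and 73.1 in the other GABAergic nuclei of the same libraries. These ranges overlapped. Lhx6 itself was at 219, 223, 240 and 165 CPM in the same order of libraries.

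The limit on Lhx6 cut through a low range. Of the 222 nuclei 154 held exactly 2 Lhx6 UMIs, 49 held 3 and 19 held 4 or more, while 803 further GABAergic nuclei held 1. Genes the choice did not use differed with the Lhx6 count in nuclei pooled over the libraries. Gbx1 was at 3.35 CPM in nuclei without Lhx6, 39.6 with 1 UMI, 76.0 with 2, 66.2 with 3 and 84.6 with 4 or more, and Meis2 at 923, 405, 152, 107 and 33.8 CPM in the same order. For both genes the pooled level at 1 UMI lay between those at 0 and at 2. BALB/c gave 21 of the 49 nuclei with 3 UMIs and 15 of the 19 with 4 or more, and C57J 2 none of the latter. Within libraries, Meis2 was lower with 3 or more UMIs than with 2 in C57J 1 (86.8 against 420 CPM) and BALB/c (40.7 against 72.3) and higher in C57J 2 (165 against 98.0) and nude (246 against 177), so the steps among the Lhx6 nuclei did not hold in every library. Of 1396 oligodendrocyte nuclei, which should lack Lhx6, 0.931% held 1 UMI and none held 2. With 3 counts as the limit for a count of 0, up to 0.215% of them may hold 2. The oligodendrocyte nuclei had median depths of 2904 (C57J 1), 2655 (C57J 2), 2567.5 (nude) and 3847.5 UMIs (BALB/c), below those of the Lhx6 nuclei. These shares therefore do not give the rate of stray Lhx6 UMIs at the depth of the Lhx6 nuclei.

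**Figure D1:**
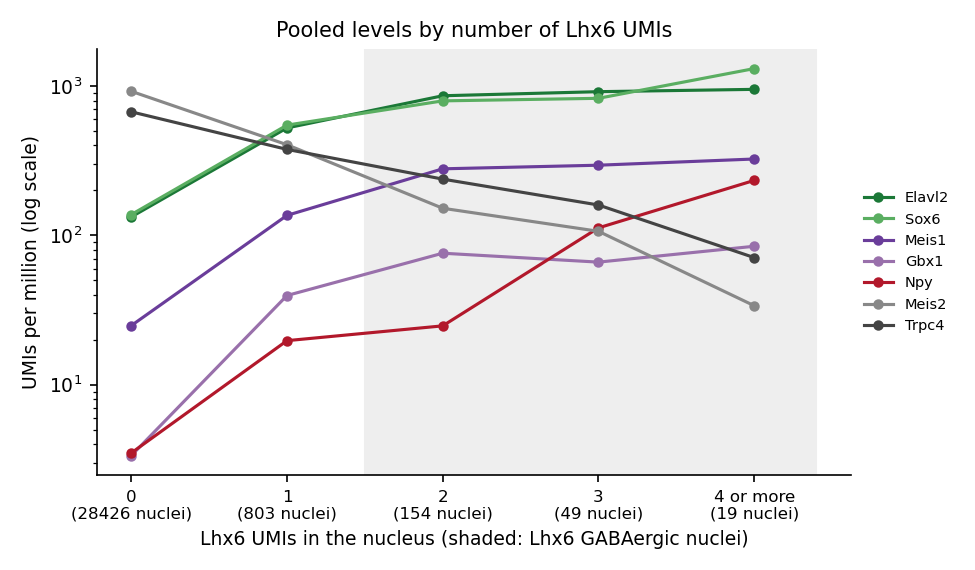
Levels of Elavl2, Sox6, Meis1, Gbx1, Npy, Meis2 and Trpc4 (y axis, CPM, log scale) in GABAergic nuclei grouped by their Lhx6 UMIs (x axis: 0, 1, 2, 3, 4 or more, the Lhx6 nuclei shaded), pooled over the 4 libraries, with no error bars. Gbx1 and Elavl2 were already higher at 1 UMI than at 0, and the pooled Npy was at 24.8 CPM at 2 UMIs and 112 CPM at 3. With 3 or more UMIs Npy was above its level at 2 in C57J 1, nude and BALB/c and below it in C57J 2.

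The share of Lhx6 nuclei was compared between the C57J and BALB/c backgrounds, as the study compared neuron classes between these mice. The share was 0.287% (95% Clopper-Pearson interval 0.204% to 0.392%) in C57J 1, 0.223% (0.145% to 0.330%) in C57J 2, 0.465% (0.353% to 0.602%) in nude and 0.848% (0.691% to 1.03%) in BALB/c. The intervals cover counting error only. Both libraries of BALB/c background were above both C57J libraries, with a log2 ratio of 1.36. The C57J pair differed with an SD of 0.26 on the log2 scale, and nude and BALB/c lay further apart, at 0.465% and 0.848%. The exact two-sided permutation test gave p = 0.333, the smallest value that 2 libraries against 2 allow. With at least 3 Lhx6 UMIs the shares were 0.0957%, 0.0715%, 0.0898% and 0.302% in the same order, so that nude lay between the C57J libraries. The BALB/c library, with the highest share, was also the deepest. The nude library, at a median of 5676 UMIs, lay between C57J 2 at 5462 and C57J 1 at 6362 UMIs. By the rule its share was above both. Depth was not tested as the cause, and shares after thinning follow. With every nucleus thinned to 2000 UMIs and the limit on Lhx6 lowered to 1 UMI, the shares were 0.199%, 0.152%, 0.253% and 0.218% and the ratio was 0.43. At 2000 UMIs 0.645% of the oligodendrocyte nuclei also held an Lhx6 UMI. The part of free Lhx6 RNA in the thinned shares was not tested, so they are not shares of Lhx6 neurons corrected for depth. The whole rule applied to thinned nuclei left 3, 0, 2 and 2 nuclei, too few for a comparison.

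**Figure D2:**
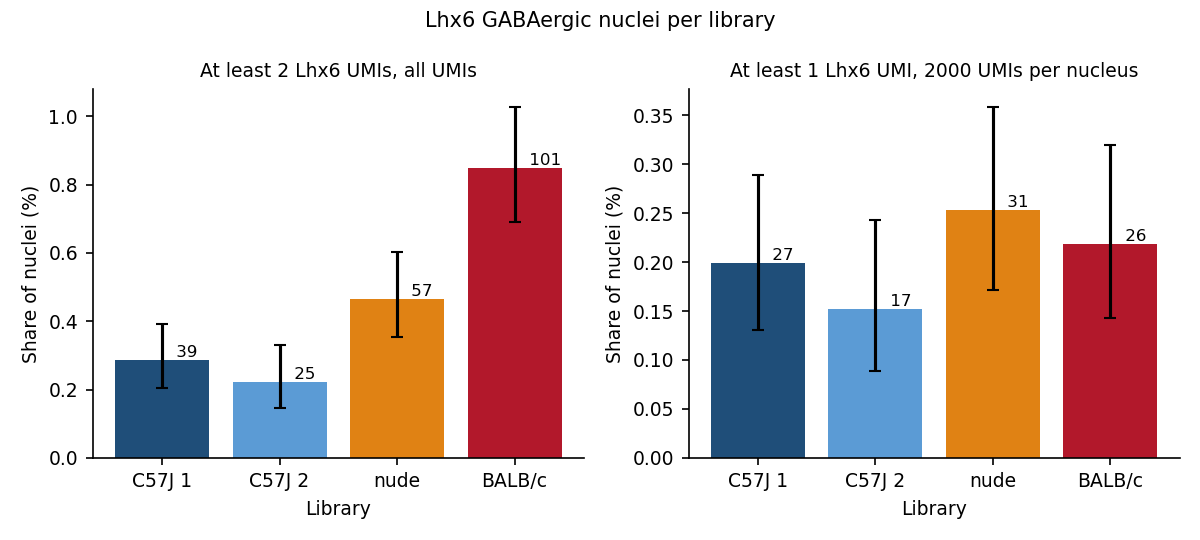
Share of Lhx6 nuclei among nuclei past the limits in each library (bars, y axis in percent, a scale of its own in each panel), with 95% Clopper-Pearson intervals as error bars and the number of nuclei beside them, by the rule (left) and after thinning to 2000 UMIs with at least 1 Lhx6 UMI (right). By the rule BALB/c stood highest at 0.848%, and after thinning the 4 libraries lay between 0.152% and 0.253%. At 2000 UMIs 0.645% of oligodendrocyte nuclei, which should lack Lhx6, also held an Lhx6 UMI.

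To ask what sets these nuclei apart, their summed UMIs were compared with those of 28426 other GABAergic nuclei that held no Lhx6 UMI, library by library, with edgeR's quasi-likelihood test and the library as a block. Of lists of related genes, 8 of 10 genes of Sst, Npy and Nos1 interneurons and 8 of 19 channel genes were higher, 13 of 19 genes of LS neurons were lower, and transcription factor genes of the ventral forebrain moved both ways. A gene was called when its adjusted p was below 0.05 and its log2 fold change exceeded 0.5 in either direction, which 2215 of 16957 genes met (13.1%), of which 1017 were higher (6% of all tested) and 1198 lower (7.06%), and 1809 had the same direction in 4 of 4 libraries. The median log2 fold change of all genes was -0.07. The share of all genes tested whose libraries did not overlap between the classes was not counted. An absence of overlap given below for single genes therefore only describes their values. The count was 1252 without BALB/c, 1446 by DESeq2, 1421 for nuclei with at least 3 Lhx6 UMIs and 839 after thinning.

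Gbx1, a homeobox gene at chr5:24502757-24527202 (GRCm38), had the largest rise of the named genes. It was at 61.9 (C57J 1), 46.1 (C57J 2), 66.8 (nude) and 85.1 CPM (BALB/c), and between 2.76 and 3.65 CPM in other GABAergic nuclei, with no overlap. The log2 fold change was 4.33 ± 0.23 (SE, 4 library pairs, edgeR adjusted p = 2.38e-73), and 43.2% of the Lhx6 nuclei held a Gbx1 UMI against 1.88% of other GABAergic and 0.716% of oligodendrocyte nuclei. After thinning to 2000 UMIs the shares were 10.8%, 0.580% and 0.287%. Meis1, a TALE homeobox gene at chr11:18879817-19018985, was at 184, 323, 267 and 318 CPM in the same order of libraries against 19.0 to 29.4 CPM (3.44 ± 0.11, edgeR adjusted p = 6.67e-221). Its paralog Meis2, at chr2:115863064-116065839, went the other way. Meis2 was at 301, 123, 193 and 60.3 CPM against 869 to 998 CPM, again with no overlap (-2.64 ± 0.11), and the long noncoding RNA gene G630016G05Rik, which starts beside it on the opposite strand at chr2:116067225-116085911, was also lower (-2.84 ± 0.26). Meis1 was above Meis2 in the Lhx6 nuclei of C57J 2, nude and BALB/c and below it in those of C57J 1.

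Of the 37 ventral forebrain transcription factor genes (a list that includes neuronal RNA-binding protein genes) 36 were tested, 11 were higher and 12 lower, with a median log2 fold change of -0.14. Among the higher were Nkx2-1 and Lhx8 of the medial ganglionic eminence program, Sox6, Satb1 and Maf, which shape interneurons born there, Npas1, Gbx1, Meis1, and the Elav family genes Elavl2 and Elavl4. Sox6 was at 849 (C57J 1), 865 (C57J 2), 618 (nude) and 936 CPM (BALB/c) against 109 to 167 CPM in other GABAergic nuclei (2.60 ± 0.09). Lhx8 was at 44.2, 34.6, 59.1 and 56.6 CPM against 6.20 to 8.93 CPM (2.86 ± 0.22), and Nkx2-1, found at low counts, at 17.7, 7.69, 9.54 and 8.08 CPM against 2.62 to 3.92 CPM (1.69 ± 0.41). None of these 3 genes, which were named from those called, overlapped between the classes. The call of Nkx2-1 was lost with at least 3 Lhx6 UMIs and after thinning, and that of Maf after thinning and without BALB/c. Of the 56 Maf UMIs of the Lhx6 nuclei 47 came from the 22 nuclei of cluster 5, an interneuron-like group of nuclei. Elavl2, the gene the study used to mark medial septal neurons, was at 471, 592, 775 and 1083 CPM against 99.1 to 155 CPM (2.44 ± 0.09).

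The 12 lower factors were Meis2, Foxp2, Isl1, Six3, Sp8, Sp9, Etv1, Dlx1 and 4 Zic genes, which are known from septal and lateral or caudal ganglionic eminence lineages. Zic1, a zinc finger factor of the septal primordium, was at 70.8 (C57J 1), 19.2 (C57J 2), 49.6 (nude) and 36.7 CPM (BALB/c) against 140 to 163 CPM (-1.84 ± 0.14), and Zic4 followed it (-2.60 ± 0.18). Foxp2 was also lower (-1.98 ± 0.12). The calls of Dlx1, Sp8 and Sp9 were lost by DESeq2, with at least 3 Lhx6 UMIs, after thinning and without nude, among other settings. That of Six3 was lost with at least 3 Lhx6 UMIs and after thinning, that of Etv1 without BALB/c, and those of the other 2 Zic genes, Zic2 and Zic5, after thinning. Zic1 and Zic4 stand in the medial septal list as well, so that list moved in both directions.

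Of the 12 medial septal GABAergic genes, all tested, 6 were higher (Elavl2, Kcnc1, Kcnc2, Gbx1, Npas1 and Tacr1) and 2 lower (Zic1 and Zic4), with a median of 1.38. Kcnc2, which encodes a Kv3 potassium channel of fast-spiking cells, was at 949 (C57J 1), 727 (C57J 2), 591 (nude) and 930 CPM (BALB/c) against 175 to 204 CPM (2.05 ± 0.09). Pvalb, the parvalbumin gene that is known from medial septal projection neurons, did not pass. It was at 0 CPM in the Lhx6 nuclei of C57J 1, C57J 2 and nude and at 5.59 CPM in those of BALB/c, with 9 UMIs in 8 nuclei (1.81 ± 0.71, edgeR adjusted p = 0.0587). Of the 11 genes of Pvalb and Pthlh interneurons 9 were tested, of which Kit and Syt2 were higher and Tac1, Eya1 and Cemip lower (median 0.86), the last 3 not called by DESeq2 or after thinning. Syt2, a synaptotagmin gene of fast release synapses, was at 39.8, 57.7, 26.7 and 53.4 CPM against 4.45 to 7.55 CPM (2.76 ± 0.23).

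Of the 10 genes of Sst, Npy and Nos1 interneurons 8 were higher (Sst, Npy, Nos1, Chodl, Crhbp, Grin3a, Tacr1 and Elfn1) and 1, Tac1, was lower, with a median of 1.43. Npy, the neuropeptide Y gene, was at 35.4 (C57J 1), 34.6 (C57J 2), 9.54 (nude) and 101 CPM (BALB/c) against 2.90 to 4.12 CPM in other GABAergic nuclei. The libraries did not overlap (3.75 ± 0.27, edgeR adjusted p = 2.80e-42), and without BALB/c the log2 fold change was 2.91. These levels rested on few nuclei: 193 Npy UMIs lay in 19 nuclei, 163 of them in BALB/c, and 1 nucleus held 45. Nos1, the neuronal nitric oxide synthase gene, was at 48.7, 53.8, 17.2 and 49.1 CPM against 12.5 to 18.1 CPM (1.43 ± 0.20), with nude inside the range of the other nuclei.

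Sst was at 66.3 (C57J 1), 65.3 (C57J 2), 34.3 (nude) and 120 CPM (BALB/c) against 31.0 to 37.6 CPM, so that nude lay inside the range of the other GABAergic nuclei (1.13 ± 0.14). Without BALB/c the change was 0.55 and was not called (edgeR adjusted p = 0.0992). Free Sst RNA was present in these libraries: at 2000 UMIs, 8.56% of the Lhx6 nuclei and 9.17% of the oligodendrocyte nuclei held an Sst UMI, so a single UMI does not mark a somatostatin neuron here. At least 2 Sst UMIs, without thinning, were found in 8.56%, 4.70% and 1.22% of Lhx6, other GABAergic and oligodendrocyte nuclei. Grin3a was not called after thinning. Crhbp and Chodl also lost their calls without BALB/c, and Chodl then turned, from 1.44 to -0.90.

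The genes of caudal ganglionic eminence interneurons showed 2 higher (Adarb2 and Npas1) and 2 lower (Sp8 and Reln) of 10 tested (median -0.18), and neither of the lower was called after thinning or without BALB/c. Adarb2, an RNA-editing family gene used to mark those interneurons in the cortex, was at 2143 (C57J 1), 1361 (C57J 2), 2091 (nude) and 1873 CPM (BALB/c) against 283 to 373 CPM (2.53 ± 0.09). Vip was among the genes of the list that were not called. Adarb2 was thus high in nuclei that were chosen for Lhx6, with no overlap between the classes in any library.

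The genes of LS neurons were lower. Of 19 tested, 13 were lower and 1, Sema3a, was higher, a call lost after thinning and without BALB/c, and the median was -1.60. Among the lower, Pth2r, Ddr2, Col15a1, Grid2ip and Nts were not called after thinning either. Pth2r and Nts also lost their calls without BALB/c, and Pth2r by DESeq2 and with at least 3 Lhx6 UMIs. Trpc4, the channel gene with which the study marked LS neurons, was at 226 (C57J 1), 181 (C57J 2), 212 (nude) and 195 CPM (BALB/c) against 646 to 729 CPM (-1.72 ± 0.10). Dgkg, a diacylglycerol kinase gene, was at 270, 234, 313 and 203 CPM against 706 to 825 CPM (-1.60 ± 0.10). Otx2os1 (-3.29 ± 0.34), Col6a3 (-2.98 ± 0.29) and Cpa6 (-2.51 ± 0.16) fell further. The list was drawn up for this report with earlier results of these data known and is not independent evidence of its direction. Of 12 striatal genes, 2 were higher (Bcl11b and Penk) and 5 lower, with a median of -0.78. Penk and, among the lower, Drd2, Ppp1r1b and Tac1 were not called after thinning, and Ppp1r1b and Tac1 were not called by DESeq2 or with at least 3 Lhx6 UMIs either.

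**Figure D3:**
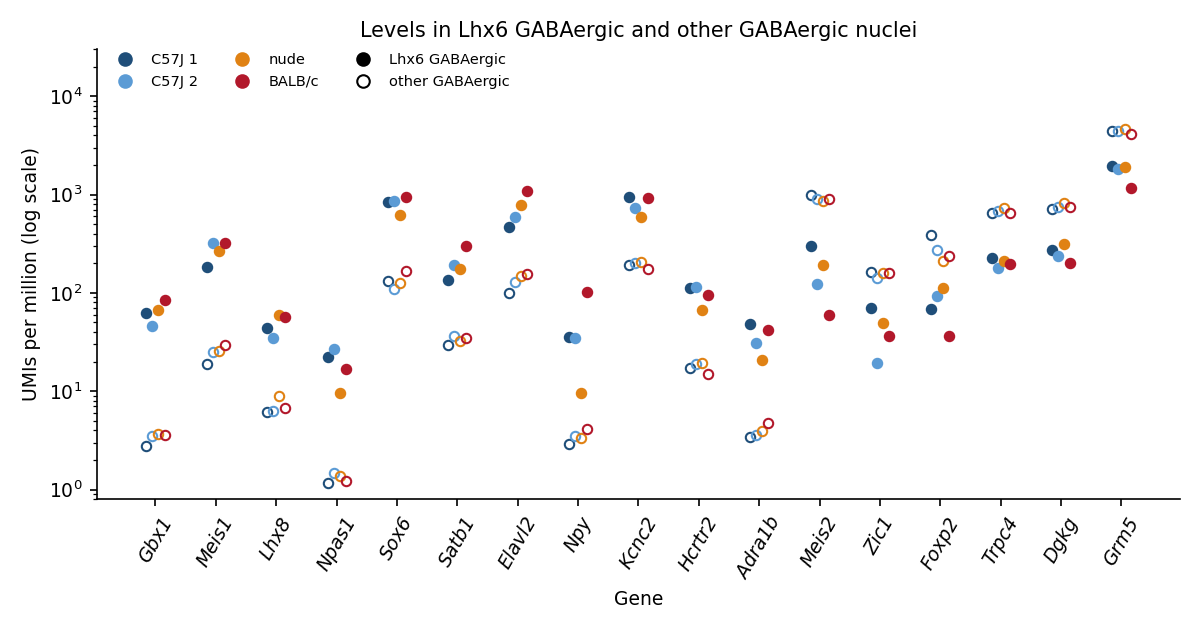
Levels of 17 genes (y axis, CPM, log scale) in Lhx6 nuclei (filled points) and other GABAergic nuclei (open points), 1 point per library. The Gbx1, Meis1 and Sox6 points of the Lhx6 nuclei lie above all those of the other GABAergic nuclei, and their Meis2, Zic1, Trpc4 and Grm5 points below.

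Genes for ion channels and receptors differed in both directions. Of 19 channel genes of fast-spiking and pacemaking cells 8 were higher (Kcnc1, Kcnc2 and Kcnmb2 among them) and 1, Kcnab1, was lower. The median of the 19 was 0.75. Kcnab1 was not called with at least 3 Lhx6 UMIs. Of the higher, Kcna2 lost its call with at least 3 Lhx6 UMIs and after thinning, and Kcnab3 after thinning and without BALB/c. Of 40 neuropeptide and transmitter receptor genes 38 were tested, 11 were higher and 5 lower (median 0.24). Hcrtr2, which encodes the orexin receptor type 2, was at 113 (C57J 1), 115 (C57J 2), 66.8 (nude) and 94.5 CPM (BALB/c) against 15.1 to 19.5 CPM (2.47 ± 0.15). The adrenergic receptor gene Adra1b was at 48.7, 30.8, 21.0 and 41.6 CPM against 3.42 to 4.75 CPM (3.17 ± 0.27), and the neurokinin 1 receptor gene Tacr1 at 79.6, 61.5, 40.1 and 108 CPM against 15.6 to 21.1 CPM (2.05 ± 0.16). None of these 3, also named from the called genes, overlapped. The other higher receptor genes were Tacr3, Chrm2 and Chrm3, Oprm1 and Adra1a, whose calls were lost after thinning, and Npy2r, Htr1a and Drd5, whose calls were lost by DESeq2, with at least 3 Lhx6 UMIs and without BALB/c, among other settings. The lower ones were Grm5, Grm8 and, not called after thinning, Drd2, Drd3 and Glp1r. Grm5, a metabotropic glutamate receptor gene, was at 1948, 1837, 1925 and 1175 CPM against 4081 to 4686 CPM (-1.39 ± 0.09).

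Of 26 genes of ionotropic receptor subunits 6 were higher and 8 lower (median -0.28). Within the GABA-A receptor genes, Gabrb2 (0.73 ± 0.09) was among the higher and Gabra2 (-1.25 ± 0.10) among the lower. Within the AMPA receptor genes Gria1 (-1.27 ± 0.09), Gria2 and Gria3 were lower, Gria3 not being called against all other nuclei. Gria4 was called higher (0.52 ± 0.09), a call lost without a filter on low counts, with at least 3 Lhx6 UMIs, after thinning, in nuclei with at least 5000 UMIs and without BALB/c. The kainate receptor gene Grik2 was at 3136 (C57J 1), 3206 (C57J 2), 2965 (nude) and 2662 CPM (BALB/c) against 1259 to 1703 CPM (0.96 ± 0.08). Of the 16 adhesion and synapse organizer genes 7 were higher, including Cntnap4 (1.56 ± 0.09) and Nxph2 (4.04 ± 0.34), and 2 lower (median 0.46). Of the 75 Nxph2 UMIs 63 came from cluster 5. Of 12 perineuronal net genes tested of 13, none was higher and Vcan and Tnr were lower (median -0.12).

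Among genes of at least 50 CPM in the higher class with the same direction in 4 of 4 libraries, the largest rises beyond Gbx1 and Meis1 were in Coro6, Col19a1, Tshz3, Galnt14, Vwc2l, Klhl1, Lypd6, Casz1, Lypd6b and Sema3e, between 2.68 and 3.34. Tshz3 and Casz1 encode zinc finger factors, Lypd6 and Lypd6b modulators of nicotinic receptors, and Sema3e a guidance cue. Coro6 was at 137 (C57J 1), 135 (C57J 2), 93.5 (nude) and 113 CPM (BALB/c) against 11.2 to 12.2 CPM, and Klhl1 at 360, 396, 380 and 384 CPM against 36.4 to 61.4 CPM. Under the same limits the largest falls beyond Meis2 and G630016G05Rik were in Gm41414, Gm29478, Ano2, Prkcd, Prdm16 and Tmem163, between -2.96 and -2.66. All 20 of these named genes kept their call and direction under every setting run.

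The 8 genes of neurons in general and of GABA handling had no call (edgeR, 4 at an unadjusted p below 0.05, 0 calls by DESeq2), with a median of -0.11. Markers of other cell types were not higher: none of 8 oligodendrocyte, 6 oligodendrocyte precursor, 7 astrocyte, 5 microglial or 3 vascular and ependymal genes tested was called higher. Of them 1, 3, 5, 0 and 1 were called lower, the last being Tiam2, while Flt1 and Rgs5 had no call. The calls of Mbp, Pdgfra, Olig2, Gja1 and Gfap were lost by DESeq2 and without BALB/c, among other settings. That of Tiam2 was lost without BALB/c and with at least 3 Lhx6 UMIs. Summed, the astrocyte genes were at 440, 369, 300 and 275 CPM in the Lhx6 nuclei against 1022, 551, 629 and 909 CPM, with Slc1a2 the most abundant and Gfap at 0. The oligodendrocyte genes summed to 427, 400, 294 and 222 CPM against 541, 516, 341 and 354 CPM. The part of free glial RNA in the fold changes was not tested. Of 16 neuropeptide genes tested of 21, 5 were higher (Sst, Npy, Nxph2, and Crh and Penk, whose calls were lost after thinning and without BALB/c) and 3 lower (Nxph1, Tac1 and, not called after thinning or without BALB/c, Nts), and of 8 immediate early genes 3 were lower (Egr1, Arc and Npas4), none of them called after thinning or without BALB/c.

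The septal cholinergic neurons are the other class related by Nkx2-1 lineage, and 420 nuclei with at least 2 UMIs of Slc5a7 represented them. With the same test, 1161 of 8511 genes were called (13.6%), 609 of them higher in the Lhx6 nuclei (7.16%) and 552 lower (6.49%), and 1024 had the same direction in 4 of 4 libraries. Meis1 was at 184, 323, 267 and 318 CPM in the Lhx6 nuclei of C57J 1, C57J 2, nude and BALB/c against 3.75 to 11.4 CPM in the cholinergic nuclei (5.11 ± 0.20). Coro6 (4.49 ± 0.22), Gbx1 (4.42 ± 0.28), Gm44593 (4.07 ± 0.22), Col19a1 (3.75 ± 0.29) and Satb1 (3.59 ± 0.21) were also higher. The count was 660 by DESeq2, 755 for nuclei with at least 3 Lhx6 UMIs, 413 after thinning and 721 without BALB/c.

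All 5 tested genes of the cholinergic list were lower. Chat, the choline acetyltransferase gene, was at 2.21, 0, 0 and 3.73 CPM against 208 to 272 CPM (-6.62 ± 0.26), which the choice on Slc5a7 favoured, and Isl1 and Lhx8 were among the others. Lhx8, higher than in other GABAergic nuclei, was below the cholinergic level of 92.8 to 131 CPM (-0.98 ± 0.16, not called after thinning), and Elavl2, at 1279 to 1563 CPM in cholinergic nuclei, had the same order (-0.95 ± 0.13). For these genes the Lhx6 nuclei thus stood between the cholinergic and the other GABAergic nuclei. Kcnc2 was at 667 to 966 CPM in cholinergic nuclei and was not called (0.13 ± 0.12). Of the 5 tested genes of Sst, Npy and Nos1 interneurons, Sst (1.33 ± 0.27) and Elfn1 (0.80 ± 0.17) were higher in the Lhx6 nuclei. Nos1 (-1.04 ± 0.21) and Tacr1 (-0.88 ± 0.16) were lower. In nude Sst went the other way, at 34.3 CPM in the Lhx6 nuclei against 50.3 CPM in the cholinergic nuclei. The calls of Sst and Elfn1 were lost without BALB/c. Those of Elfn1, Nos1 and Tacr1 were lost with at least 3 Lhx6 UMIs and after thinning, and that of Elfn1 also by DESeq2. Sox6 (3.52 ± 0.13), Hcrtr2 (3.54 ± 0.22) and Syt2 (4.42 ± 0.34) were higher.

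The 222 nuclei were not uniform. Leiden clustering divided them into 9 clusters of 15 to 39 nuclei, each defined from the same counts and given here as a description without a test. Clusters 1, 2, 3 and 7 had Gbx1 at 114, 116, 95.3 and 131 CPM, while clusters 4 and 5 held no Gbx1 UMI. Meis1 was at 657, 588 and 310 CPM in clusters 1, 2 and 7 and at 0 in cluster 3, which had the highest Adarb2. Across nuclei, Gbx1 was found in 96 and Meis1 in 82, and 59 nuclei held both, which is 61.5% of the first and 72.0% of the second. Npas1, a basic helix-loop-helix factor, led cluster 7 at 134 CPM, and 15 of the 19 nuclei with Npas1 also held Gbx1.

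Cluster 5 (22 nuclei, of which 6, 2, 5 and 9 came from C57J 1, C57J 2, nude and BALB/c) was Sst Npy Nos1 interneuron-like. Npy, Sst, Nxph2, Nos1 and Maf led it, with Npy at 995, Sst at 1114, Nos1 at 484 and Chodl at 92.4 CPM, of which all Chodl came from BALB/c, and it had the highest Sox6 (2310 CPM) with no Gbx1 and no Lhx8. Of the 14 nuclei with at least 2 Npy UMIs (3, 2, 1 and 8 per library) 12 lay in this cluster, 11 also held at least 2 Sst UMIs and 8 held Nos1, while 1 held Gbx1 and none Lhx8. Its nuclei were present in all 4 libraries, though Npy within the cluster ranged from 160 CPM in nude to 1608 CPM in BALB/c. It held 94.8% of the Npy, 79.5% of the Sst and 71.8% of the Nos1 UMIs of all Lhx6 nuclei.

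Cluster 6 (21 nuclei) had among its leading genes the LS marker Cpa6 and also Ano2, Prdm16 and Gm41414, which were lower in the Lhx6 nuclei as a whole, and held 8 of the 23 predicted doublets. Its Trpc4 at 702 CPM lay within the 646 to 729 CPM of other GABAergic nuclei, its Dgkg at 914 above their 706 to 825 CPM, and its Meis2 at 605 below their 869 to 998 CPM. Without it 2572 genes were called against other GABAergic nuclei and 117 of the 119 list genes called stayed called. The other clusters keep their numbers: cluster 4 was led by Col6a5, Zfhx3 and Prlr, with Sox6 at 28.9 CPM, cluster 8 by Tafa4, Ndst4 and Pou3f2, and cluster 9 by Prlr, Cadps2 and Maml2.

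**Figure D4:**
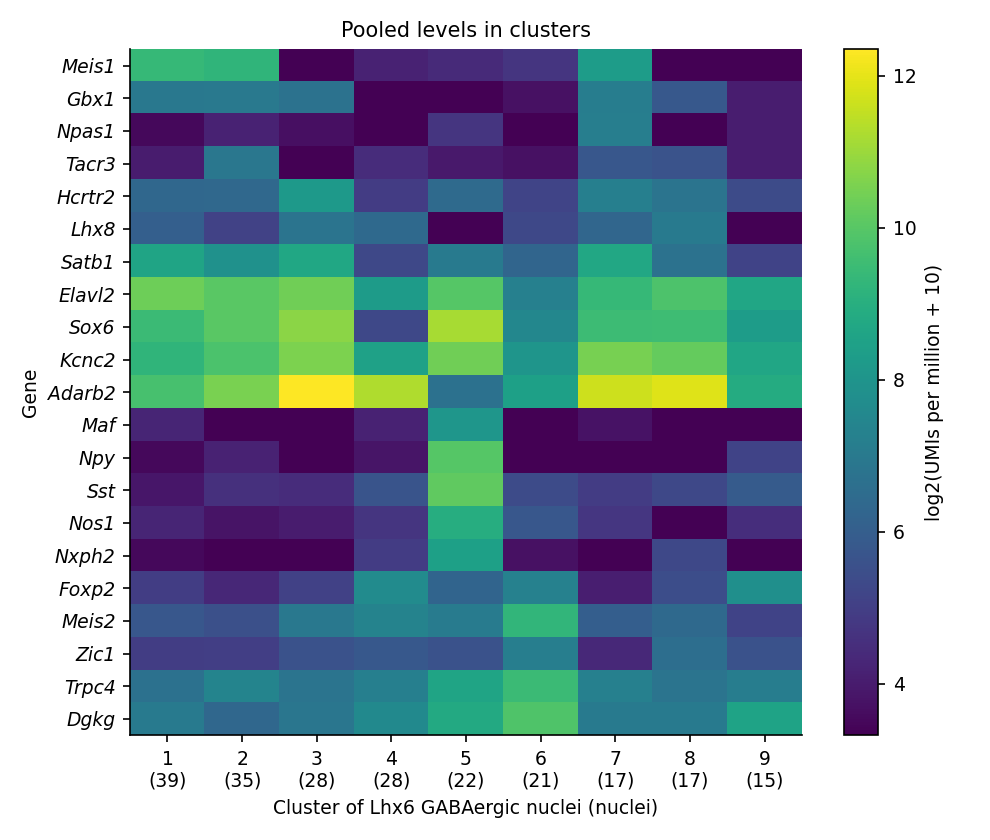
Levels of marker genes (y axis; colour, log2 of CPM + 10) in the 9 clusters of the 222 Lhx6 nuclei (x axis, with the number of nuclei), pooled over libraries. Npy, Sst and Nos1 are high in cluster 5, Gbx1 in clusters 1, 2, 3 and 7, and the LS genes Trpc4, Dgkg and Meis2 in cluster 6.

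Last, the nude and BALB/c libraries were compared with the 2 C57J libraries within the Lhx6 nuclei, the study's comparison of strain backgrounds. Of 6832 genes tested 17 were called (0.249%), 5 higher (0.0732%) and 12 lower (0.176%) in the BALB/c background, and 483 had an unadjusted p below 0.05. The libraries of the 17 did not overlap between backgrounds, as for 35.9% of all genes tested. DESeq2 called 3 genes. A gene that missed the threshold is not thereby shown to be alike in the backgrounds.

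The smallest p was that of 1500004A13Rik, a noncoding transcript gene at chr3:88782943-88832547. It was at 108 (C57J 1), 169 (C57J 2), 22.9 (nude) and 19.9 CPM (BALB/c) (-2.71 ± 0.31, edgeR adjusted p = 2.32e-05). Fggy, a carbohydrate kinase gene at chr4:95557507-95926939, was at 90.7, 88.4, 11.4 and 19.9 CPM (-2.39 ± 0.35, edgeR adjusted p = 0.000934). A930015D03Rik (-1.95 ± 0.30), Gm32442 (-1.62 ± 0.26), Gm31508 (-2.78 ± 0.48) and the kinase gene Ulk4 (-1.76 ± 0.39) were lower as well, of which the first is annotated as antisense to another gene, and whether counting used the strand is not given in the sources used here. Cldn34c1 on the X chromosome was at 31.0 (C57J 1) and 26.9 CPM (C57J 2) and at 0 in nude and BALB/c, at least 21.0-fold lower against a floor of 3 counts over the group. Near-identical copies of Cldn34c1 make its counts uncertain.

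Higher in the BALB/c background were the cilia genes Cfap46 and Cfap54, Eya4, Rnf121 and the noncoding Gm20098. Cfap54 was at 44.2 (C57J 1), 46.1 (C57J 2), 189 (nude) and 126 CPM (BALB/c) (1.72 ± 0.29, edgeR adjusted p = 0.00305), Cfap46 at 8.85, 11.5, 57.2 and 55.3 CPM (2.46 ± 0.47), and Rnf121 at 39.8, 46.1, 122 and 130 CPM (1.55 ± 0.28). Eya4 was at 0, 7.69, 40.1 and 37.9 CPM (3.66 ± 0.73). Gm20098 was at 0 in both C57J libraries and at 43.9 and 34.2 CPM in the others, at least 8.68-fold higher against the floor over the group. Of the 13 genes named in this comparison 12 had the same direction in other GABAergic nuclei with no overlap of libraries, as did 29.3% of all genes tested. Cfap54 was there at 71.1, 78.2, 260 and 254 CPM and Fggy at 62.0, 61.6, 12.7 and 11.2 CPM.

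The 13th gene, Adamtsl1, was at 234, 223, 137 and 49.7 CPM in the Lhx6 nuclei of C57J 1, C57J 2, nude and BALB/c (-1.51 ± 0.30, edgeR adjusted p = 0.0112) and at 476, 512, 489 and 338 CPM in other GABAergic nuclei. It leads cluster 6, and without that cluster the change was -0.19. The cluster was formed from the same counts and left out after seeing the data, so this value describes where the Adamtsl1 UMIs lay and is no test. Without the cluster 8 genes were called in all.

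Of 134 genes of the lists tested between the backgrounds 1500004A13Rik was the 1 called by edgeR and by DESeq2, and 32 had an unadjusted p below 0.05. It stands in a list of strain genes known from other cell classes of these libraries and is not independent evidence. Among the 17 transcription factor genes tested and the 16 receptor genes tested none was called (edgeR, 6 and 4 at an unadjusted p below 0.05, 0 by DESeq2). Of the 7 genes that the study followed in neurons 4 were tested here and none was called (edgeR, 3 at an unadjusted p below 0.05, 0 by DESeq2). The log2 fold changes of these 4 were -0.42 (Grm7), -0.63 (Ndrg4), 1.59 (Ndn) and 0.03 (Tafa2). The study reported Grm7 and Ndrg4 as lower in nude and BALB/c mice. Batch could be told apart only in part, with 1 C57J library in each batch. Within batch 2, that is without C57J 1, 27 genes were called and 9 of them were among the 17. With batch as a term 25 were called, of which 10 were among the 17.

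Whether the difference between backgrounds was itself different in Lhx6 and in other GABAergic nuclei was tested with the interaction of class and background. Of 18139 genes 24 were called (0.132%), 7 with a higher and 17 with a lower difference in the Lhx6 nuclei, and 730 had an unadjusted p below 0.05. Zfp804b, a zinc finger gene with the smallest p, was at 562 (C57J 1), 657 (C57J 2), 366 (nude) and 221 CPM (BALB/c) in the Lhx6 nuclei and at 703, 790, 821 and 762 CPM in the others. The backgrounds did not overlap in the Lhx6 nuclei and overlapped in the others, with an interaction of -1.19 ± 0.19 (edgeR adjusted p = 1.07e-05). DESeq2 called 1 gene, and without the library block none was called.

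**Figure D5:**
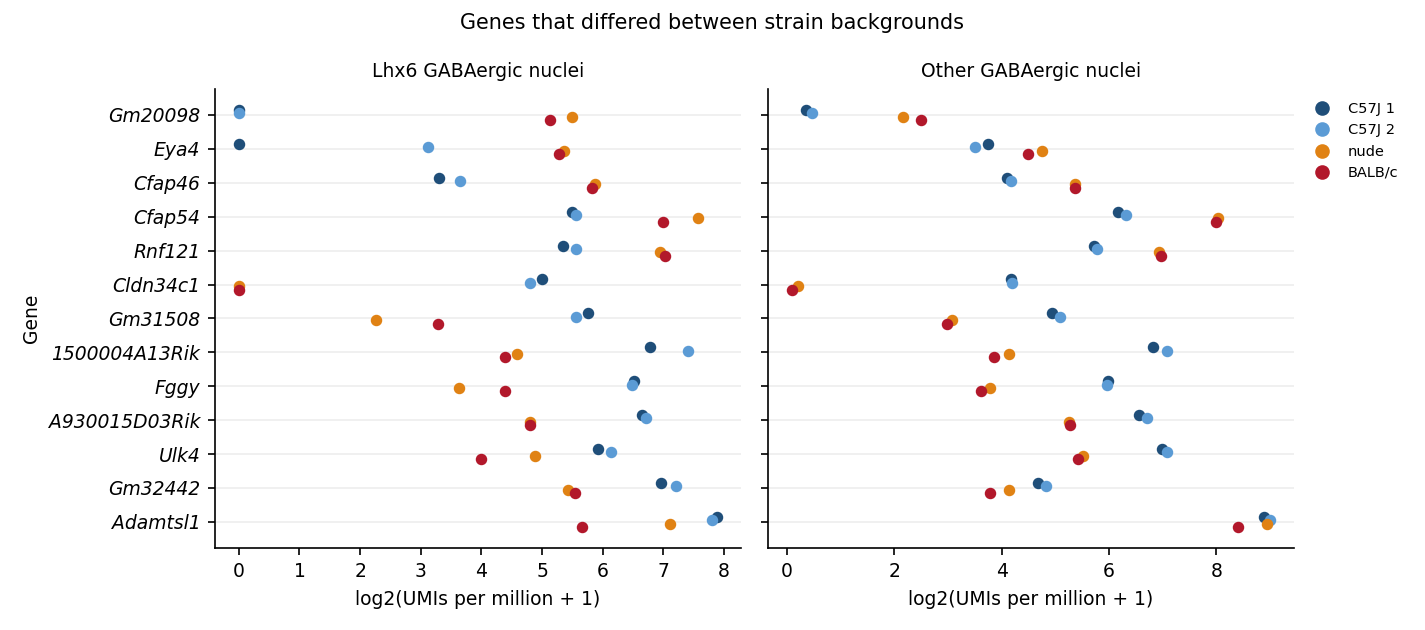
Levels of the 13 named genes (x axis, log2 of CPM + 1) in Lhx6 nuclei (left) and in other GABAergic nuclei (right), 1 point per library. In the Lhx6 nuclei the points of the 2 C57J libraries lie apart from those of nude and BALB/c for all 13 genes, which the choice of the 13 required. In the other GABAergic nuclei they lie apart in the same direction for 12, Adamtsl1 being the exception, against 29.3% of all genes tested.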

How the data were processed

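LS tissue of 3 male mice was pooled in each of 4 libraries (10x Genomics). The authors used Cell Ranger 7.0.1 and mm10, and the values they deposited are UMI counts for each gene in each barcode that passed its cell calling, not normalized. The treatment of intronic reads is not given in the sources used here. The choice of nuclei by raw UMIs followed the rule in the text. The nuclei, the gene lists and the tests were chosen with earlier results of these data known.

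UMIs were summed per library and class and tested in R 4.3.3 with edgeR 4.0.16 (filterByExpr, TMM, quasi-likelihood F test, Benjamini-Hochberg adjustment). The library was the unit, where the study tested single nuclei. edgeR shares its estimate of spread among genes, so a p-value does not measure a gene's own spread between the 4 pools alone. Pappa, for example, was called for the interaction with 26.5 CPM in C57J 1 and 150 CPM in C57J 2. The very small p-values between classes are therefore no measure of replication over pools. The library was a block between classes, because both come from the same mice. SE was taken from the fold change and F. The 7 genes of the rule were never read as results. Results that rest on some further genes are not reported here. Besides list members, genes were named by largest change among those called: up to 8 each way between backgrounds (at least 10 CPM in the higher group, no overlap), 12 higher and 8 lower against other GABAergic nuclei and 6 each way against cholinergic nuclei (at least 50 CPM, same direction in 4 of 4 libraries), and 5 by p for the interaction. Leading genes of clusters were named after their values were seen.

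Doublets were predicted per library from 2 simulated doublets per nucleus on 30 components of 2000 variable genes, at 0.8% per 1000 nuclei. Clusters came from the Leiden algorithm (leidenalg 0.10.2, resolution 0.8, 12 neighbours, 12 components of 1000 variable genes). Thinning drew 2000 UMIs per nucleus. Alternatives were DESeq2 1.42.0, RLE scaling, no low-count filter, no limit on the fold change, doublets removed, other Lhx6 limits, thinning, at least 5000 UMIs, each library left out, batch as a term, no block, all other nuclei as comparator and nuclei with or without Sst. Leaving out cluster 6, and thinning with 1 Lhx6 UMI, were added after seeing the data. Tests were tried on simulated data with known changes. Gene positions were looked up by identifier in GENCODE vM21 (GRCm38, the build of mm10).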

Additional observations from a re-analysis of the deposited data

Results flagged for a closer look

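The differences between strain backgrounds were themselves different between Lhx6 and other GABAergic nuclei for 24 genes by the interaction test of edgeR, and the 5 with the smallest p follow. Zfp804b had an interaction of -1.19 on the log2 scale and was the 1 gene that DESeq2 also called. It kept its call without cluster 6 (-1.30) and without C57J 1 (-1.19), and lost it without BALB/c (-0.90, edgeR adjusted p = 0.574). The long noncoding RNA gene 6530403H02Rik had an interaction of 1.94, at 31.0, 34.6, 109 and 54.1 CPM in the Lhx6 nuclei of C57J 1, C57J 2, nude and BALB/c against 64.2, 37.1, 28.1 and 33.5 CPM in the others, and lost its call without C57J 1 or without nude. Mob3b had an interaction of -2.37 and rested on C57J 1, where it was at 64.1 CPM, with 7.69, 9.54 and 10.6 CPM in the other 3 libraries, and it turned to 0.41 with predicted doublets removed and to 1.09 without cluster 6. Pappa, which leads cluster 2 and encodes a protease of insulin-like growth factor binding proteins, had an interaction of -1.98, with 26.5, 150, 11.4 and 47.2 CPM, so the backgrounds overlapped, and without C57J 2 the value was -0.64. Zfpm2, a cofactor gene of GATA factors, had an interaction of -1.37, at 148, 104, 59.1 and 42.9 CPM in the Lhx6 nuclei against 182, 156, 170 and 164 CPM in the others. The clusters take different numbers of nuclei from each library, for example 4, 7, 8 and 16 in cluster 2, and beyond the values without cluster 6, with which 22 genes were called and 15 of the 24 kept their call, the part of this in the interactions was not tested.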

How the results depend on the processing

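Against other GABAergic nuclei, the calls numbered 2215 as reported, 1446 by DESeq2, 1421 with at least 3 Lhx6 UMIs, 839 after thinning to 2000 UMIs, and 1252 to 2145 with 1 library left out, the lowest without BALB/c. Against cholinergic nuclei they numbered 1161 as reported, 660, 755 and 413 under the same 3 settings, and 721 to 1267 with 1 library left out, again lowest without BALB/c. For the strain backgrounds within Lhx6 nuclei they numbered 17 as reported, 3 by DESeq2, 39 without a filter on low counts, 10 with predicted doublets removed, 2 with at least 3 Lhx6 UMIs, 1 after thinning, 8 without cluster 6, and 14 to 68 with 1 library left out. Of the 2 genes with at least 3 Lhx6 UMIs 1 was among the 17, and the 1 after thinning was not. The 68 came without C57J 2, with 27 without C57J 1 and 38 without nude, and a lone C57J library was assumed to vary like the others. Nuclei with an Sst UMI and nuclei without one each gave 0 calls (edgeR, 165 and 320 genes at an unadjusted p below 0.05). The interaction gave 24 calls as reported, 1 by DESeq2, 15 with doublets removed, 12 with at least 3 Lhx6 UMIs, 0 after thinning (437 at an unadjusted p below 0.05), and 5 to 36 with 1 library left out. Smaller sums of UMIs enter the fits with thinning and with 3 Lhx6 UMIs, and what caused the changes in these counts was not tested.

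The library was a replicate block in the comparisons between classes. Without the replicate block the calls numbered 1672 against other GABAergic nuclei, 961 against cholinergic nuclei and 0 for the interaction (733 at an unadjusted p below 0.05).

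The log2 ratio of shares was 1.36 as reported and 1.23 with at least 3 Lhx6 UMIs, where nude lay between the C57J libraries. It was 0.58 with the rule on thinned nuclei (7 nuclei in all, too few for a comparison), 0.69 with at least 1 Lhx6 UMI and 0.43 with both. With 1 library left out it ranged from 0.87 (without BALB/c) to 1.73 (without nude). Of the 119 list genes called against other GABAergic nuclei 69 of 117 tested stayed called after thinning, 85 without BALB/c, 92 with at least 3 Lhx6 UMIs and 95 by DESeq2, and Chodl, which ranged from -0.90 to 1.80 with 1 library left out, was the 1 whose direction turned under any setting run. Mob3b turned with doublets removed (0.41) and without cluster 6 (1.09), and ranged from -2.98 to 0.16 with 1 library left out. RLE scaling gave 17, 2209, 28 and 1160 calls in the strain, other GABAergic, interaction and cholinergic comparisons. With 25 to 101 nuclei a library, a gene at a few CPM rests on a handful of UMIs.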

Other observations

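Of 315 nuclei with at least 2 Lhx6 UMIs 281 also held at least 2 Gad1 and Gad2 UMIs, and 222 met the whole rule. Among the 315, 37 held Slc5a7, 28 held at least 3 St18 UMIs, 4 held at least 2 of Slc17a6 and 1 held at least 2 of Slc17a7. The cholinergic nuclei themselves had Lhx6 at 7.48 (C57J 1), 18.8 (C57J 2), 16.1 (nude) and 20.7 CPM (BALB/c).

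Lhx8 was found in 82 nuclei, of which 54 also held Gbx1. It was found in 56.2% of the nuclei with Gbx1 and in 22.2% of those without. These are descriptions of UMIs per nucleus and share its depth.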
